A study of Homo sapiens with 4 samples.

Results

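The 18 h array was compared with the 12 h array of RCM-1 cells exposed to methylthioacetic acid (MTA). RCM-1 is a well-differentiated human colorectal cancer cell line whose cell sheets form domes, blisters of the sheet over fluid that the polarised cells have pumped beneath it. MTA is a small acid that carries a methylthio group. Both arrays hold cells given 1 mM MTA in a mixture of RPMI and Ham's F12 media with fetal bovine serum, for 12 h or for 18 h, and the medium was then changed to MTA-free medium with 0.1% acetonitrile, the vehicle. Cells were kept until 24 h after the first application. The 12 h cells had therefore been without MTA for 12 h at harvest and the 18 h cells for 6 h, so the length of exposure and the time since removal cannot be told apart in this comparison. The pair is 2 of the 4 arrays of the study, which has 1 array for each of 0, 6, 12 and 18 h. The comparison asks which transcripts still differed as the exposure was lengthened, and it does not use the 0 h array.

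A log2 ratio is given for each probe set, the group of probes that reads 1 transcript, as its signal at 18 h over its signal at 12 h, after each array was divided by its own median. A ratio of −1 is a level 2-fold lower at 18 h. Of 54613 probe sets other than controls, 18576 (34%) had a signal of 50 or more on at least 1 of the 2 arrays and are reported here. Of these, 16840 reached 50 on both arrays, 1098 on the 12 h array alone and 638 on the 18 h array alone. Probe sets whose brighter signal lay just inside the minimum, from 50.003 to 50.031, had ratios from −0.95 to 0.59, and the 5 just outside it had ratios from −0.25 to 0.70. A probe set that passed on 1 array alone had to differ between the arrays, so ratios of such dim readings are named as dim. The reported probe sets with a single gene symbol stood for 9886 genes, and each gene was represented by its brightest reported probe set. With 1 array a time there is no replicate, no test was made, and every difference is a description of these arrays.

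A cell about to divide first builds and loads the machinery that copies DNA. In G1, cyclin E with CDK2 and activating members of the E2F family of transcription factors switch on genes of DNA replication. These code for licensing factors, helicase subunits, DNA polymerases and deoxynucleotide supply. Genes for cyclin B, spindle kinesins and kinetochore proteins come on later, in G2 and mitosis, through the complexes that bind CCAAT boxes and the cell cycle homology region of their promoters.

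Cells of both arrays expressed the defining genes of colorectal epithelium. The 11 markers of that list that could be named had signals from 54.9 to 11567 at 12 h and from 70.3 to 10105 at 18 h. No endothelial, immune or red cell marker reached 50 on either array. Of 6 fibroblast markers, COL1A1 alone did, with 115 at 12 h and 144 at 18 h, and the summed level of the 6 was 155 and 198. The median signal was 16.6 at 12 h and 16.4 at 18 h. As a measure of RNA integrity, GAPDH probes at the 3′ end read 1.53 times those at the 5′ end at 12 h and 1.63 times at 18 h. For ACTB these values were 5.86 and 6.45. After the division by the median, the 12 probe sets of poly-A controls, spiked into the RNA, averaged −0.26 on the log2 scale. They ranged from −0.57 to −0.11. The 9 of hybridization controls, spiked into the labelled sample, averaged 0.23 and ranged from 0.05 to 0.46. Scaling to either set of controls would add 0.26 to every ratio or take 0.23 from it, so a value between −0.26 and 0.23 changes sign under at least 1 of them. The part of RNA integrity and array scaling in the differences below was not tested.

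Between 12 h and 18 h most signals differed little. CXCL8, CDC6, CCNE2 and CDC45, a chemokine and 3 genes of the entry into S phase, had the lowest ratios among genes at 50 or more on both arrays, and LAMA5, a laminin chain, had the highest. The median log2 ratio of the 9886 genes was −0.18, with quartiles of −0.35 and 0.00. Of the reported probe sets, 201 (1.08%) had a ratio below −1 and 75 (0.404%) one above 1. Among genes, 95 (0.961%) were below −1 and 28 (0.283%) above 1, while 1138 (11.5%) were below −0.5 and 242 (2.45%) above 0.5. Of the probe sets past 2-fold, 72.8% were lower, a share that depended on the scaling. It was 39.8% (106 lower, 160 higher) with each array divided by its trimmed mean, 26.4% relative to the poly-A controls, 55.2% after quantile normalization and 94.5% relative to the hybridization controls. Lists of genes are therefore read by their difference from the median of all genes, since a scaling by 1 number per array shifts both alike.

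The measure of error used here is the spread between probe sets of the same gene. The log2 ratios of the 2 brightest reported probe sets of a gene differed with an SD of 0.378 over 4074 genes, and by 0.207 in the median. Where the dimmer of the pair had a mean signal under 100 the SD was 0.498, and where it had 1000 or more it was 0.202. This spread is between readings of the same RNA, and it says nothing of the variation between cultures. Past 2-fold, most lower readings were dim: 130 of the 201 lower probe sets were under 50 at 18 h, and 64 of the 75 higher ones were under 50 at 12 h.

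**Figure D1:**
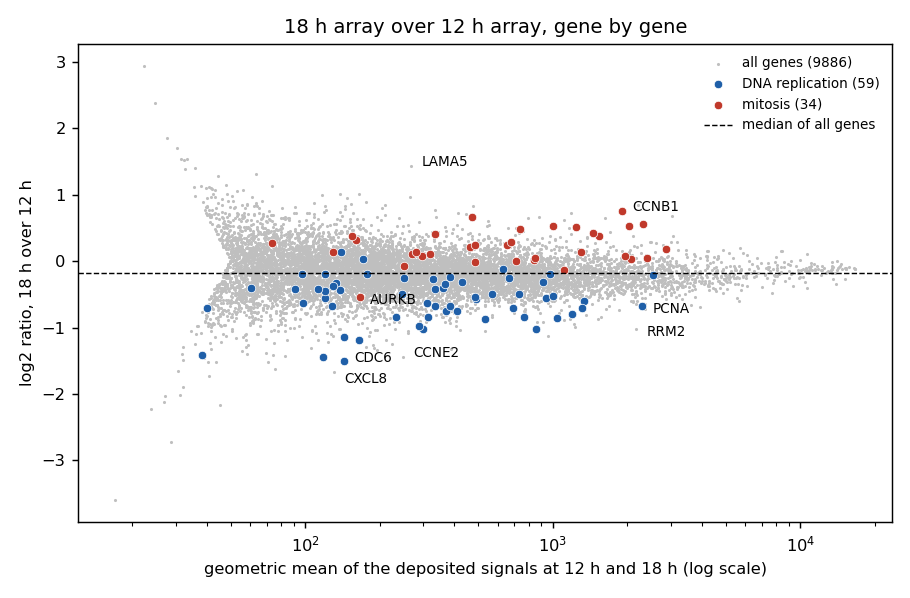
Log2 ratio of the 18 h array over the 12 h array (vertical axis) against the geometric mean of both deposited signals (horizontal log axis), with a point for each of 9886 genes by its brightest reported probe set. Genes of DNA replication (59, blue) lie mostly below the dashed median of all genes at −0.18 and genes of mitosis (34, red) mostly above it, while the widest ratios of all belong to dim genes on the left.

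Genes that license and fire replication origins had lower signals at 18 h than at 12 h. CDC6, which loads the helicase onto origins, read 243 at 12 h and 84.8 at 18 h, which is 2.83-fold lower and a log2 ratio of −1.5. A second CDC6 probe set gave −1.39, within the spread between probe sets. CDC45, a part of the active helicase, had signals of 197 and 71.4 and a log2 ratio of −1.44. MCM10, which helps to switch on the loaded helicase, had 215 and 95.9, a log2 ratio of −1.15, but its other reported probe sets reached up to −0.42. DTL, a ubiquitin ligase adaptor that targets CDT1, had 428 and 207, with log2 ratios of −1.03 and −1.29 on its pair of probe sets. These 4 genes were the lowest of the list of helicase and licensing genes. Of the 28 genes on it, 25 were reported, 24 of them at 50 or more on both arrays. Their median log2 ratio was −0.57, a shift of −0.38 from the median of all genes, and 13 of 25 (52%) were below −0.5 against 11.5% of all genes. None was above 0.5, beside 2.45% of all genes.

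The subunits of the MCM helicase ring, named together although some were chosen after their values were seen, all had lower signals at 18 h. The log2 ratio was −0.98 for MCM5, −0.87 for MCM2, −0.84 for MCM3, −0.80 for MCM6, −0.70 for MCM4 and −0.49 for MCM7. In MCM3 the signal was 1030 at 12 h and 569.9 at 18 h, and in MCM5 408 and 204. The 4 probe sets of MCM4 ranged from −1.58 to −0.47, wider than the usual spread. At the other end of the list, CDT1, which brings the ring to the origin, had a log2 ratio of 0.14 on its brightest probe set and −0.77 on the other. ORC2, of the complex that marks origins, had 0.04 and −0.60. Both were named after their values were seen, and for neither do the probe sets settle a direction.

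Genes of the replication fork had a similar shift. All 34 genes of this list were reported, 33 of them at 50 or more on both arrays, with a median log2 ratio of −0.55. Each of the 34 lay below the median of all genes, a position that 50% of all genes have by construction, and 19 (55.9%) lay below −0.5. POLA2, of the DNA polymerase alpha and primase complex, had signals of 251 and 109 and a log2 ratio of −1.19. UHRF1, which carries DNA methylation through replication, had 1221 and 596, a log2 ratio of −1.02. FEN1, which trims the flaps of lagging-strand fragments, had 1404 and 769, with log2 ratios of −0.85 and −0.89 on its pair of probe sets. CLSPN, a mediator of the checkpoint at stalled forks, had the lowest ratio of the list, −1.41, from dim signals of 62.8 and 23.3. The ratio of POLE3, a small subunit of polymerase epsilon, was −0.24, near the median of all genes. PCNA, the sliding clamp of the polymerases, was named after its value was seen, with signals of 2917 and 1806 and a log2 ratio of −0.67. Over both replication lists, 32 of 59 genes (54.2%) were below −0.5 and 7 below −1, beside 11.5% and 0.961% of all genes.

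Promoters of some of these genes are shown to describe letters that members of the lists share there. They are the 250 bases before the annotated start in RefSeq (build GRCh38.p14), written along the gene's own strand, with capitals marking every match, on either strand, to a site of the E2F factors (TTTCCCGC, TTTCGCGC, TTTGCCGC or TTTGGCGC), a CCAAT box (CCAAT) or the cell cycle homology region (TTTGAA or TTCGAA). The first 4 genes belong to replication and had lower signals at 18 h, and the last pair to mitosis, with higher ones.
CDC6, chr17:40287629-40287878 (+ strand): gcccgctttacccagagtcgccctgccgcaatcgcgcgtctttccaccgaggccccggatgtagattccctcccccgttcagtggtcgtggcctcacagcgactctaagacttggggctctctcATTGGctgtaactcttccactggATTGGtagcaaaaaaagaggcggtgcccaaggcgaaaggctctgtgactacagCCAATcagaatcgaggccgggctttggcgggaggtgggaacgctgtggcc
POLA2, chr11:65261712-65261961 (+ strand): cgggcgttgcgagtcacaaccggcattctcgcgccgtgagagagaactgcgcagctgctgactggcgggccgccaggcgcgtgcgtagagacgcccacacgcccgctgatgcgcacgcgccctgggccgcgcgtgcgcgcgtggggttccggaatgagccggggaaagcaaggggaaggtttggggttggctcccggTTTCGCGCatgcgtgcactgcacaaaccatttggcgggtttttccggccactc
DTL, chr1:212035498-212035747 (+ strand): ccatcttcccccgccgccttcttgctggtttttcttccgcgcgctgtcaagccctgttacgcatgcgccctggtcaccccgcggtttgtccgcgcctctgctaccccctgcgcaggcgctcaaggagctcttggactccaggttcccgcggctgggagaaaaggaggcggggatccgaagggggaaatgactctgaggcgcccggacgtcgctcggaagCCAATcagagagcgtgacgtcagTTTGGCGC
MCM3, chr6:52284743-52284992 (− strand): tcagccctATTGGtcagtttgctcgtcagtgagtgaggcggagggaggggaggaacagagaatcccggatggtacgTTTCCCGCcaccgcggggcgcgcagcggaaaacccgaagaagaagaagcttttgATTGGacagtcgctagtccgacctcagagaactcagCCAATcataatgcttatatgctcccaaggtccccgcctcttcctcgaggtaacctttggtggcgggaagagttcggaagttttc
CCNB1, chr5:69166900-69167149 (+ strand): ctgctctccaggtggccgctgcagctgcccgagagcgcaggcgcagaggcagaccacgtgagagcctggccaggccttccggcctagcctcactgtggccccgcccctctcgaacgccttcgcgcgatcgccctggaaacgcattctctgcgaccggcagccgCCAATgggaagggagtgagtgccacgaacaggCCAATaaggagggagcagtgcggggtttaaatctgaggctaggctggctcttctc
HMMR, chr5:163460382-163460631 (+ strand): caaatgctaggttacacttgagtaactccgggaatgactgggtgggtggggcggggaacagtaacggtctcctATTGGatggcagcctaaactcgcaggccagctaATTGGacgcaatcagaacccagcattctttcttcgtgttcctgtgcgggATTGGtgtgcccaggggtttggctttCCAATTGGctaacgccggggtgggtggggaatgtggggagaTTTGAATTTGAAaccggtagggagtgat

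An E2F match was present once in each of the windows of POLA2, DTL and MCM3, at 53, 8 and 174 bases before the start. The CDC6 window held 3 CCAAT boxes and none of the E2F letters searched, and that of CCNB1 held 2 CCAAT boxes. Runs a single letter off the searched ones, such as tttggcgg in the windows of CDC6 and POLA2, were not counted. In HMMR the window held 5 CCAAT matches, of which 2 overlap, and 2 matches to the cell cycle homology region next to each other. Counted over genes with a promoter in the table, an E2F match stood in 9 of 22 helicase and licensing genes (40.9%) and in 9 of 30 fork genes (30%), beside 3.4% of all 27305 genes and 5.79% of the reported ones. In the mitosis list it stood in 2 of 28 (7.14%). The cell cycle homology region had the opposite distribution, with 16 of 28 mitosis genes (57.1%), 1 of 22 and 1 of 30 in the replication lists, and 17.2% of all genes. A CCAAT box was found in 78.6% of the mitosis genes, 68.2% and 53.3% of the replication lists and 37% of all genes. Among all reported genes below −0.5, whatever their list, 7.96% held an E2F match, and among those above 0.5, 1.67%. The cell cycle homology region stood in 11.1% of genes below −0.5 and 15.6% of those above 0.5, beside 13.8% of reported genes. For a CCAAT box the shares were 42.8% and 42.8%, beside 41.9%, so neither set the higher genes far apart from all reported ones. A match is a run of letters and not a bound site. The shares of the lists follow from which genes are on them and not from the log2 ratios, so they are no check on the ratios.

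In the list of G1/S cyclins, CDC25A and E2F, 18 of 25 reported genes lay below the median of all genes. The list holds genes that drive the passage from G1 into S phase and genes that restrain it, such as RB1, E2F7 and E2F8. A ratio above 0 was held by 4 of the 25, beside 2439 of all 9886 genes. CCNE2, a cyclin E that activates CDK2, had signals of 414 at 12 h and 150.2 at 18 h and a log2 ratio of −1.45, but a second probe set gave −0.60. CCNE1, the other cyclin E, had 108 and 68.9, a log2 ratio of −0.63. E2F8, E2F2 and E2F7 had log2 ratios of −1.26, −1.18 and −1.09, each from a single probe set. The signal of E2F2 was 129 at 12 h and 55.8 at 18 h, near the minimum. The other 5 reported E2F genes, read after their values were seen, lay between −0.33 (E2F3) and 0.21 (E2F5). SKP2, which marks CDK inhibitors for destruction, had 764 and 421 and a log2 ratio of −0.84. Other members read after their values were seen were CCND1, RB1 and CDK6 at −0.02, −0.15 and −0.01, and CCNA2 at 0.08. Of 25 reported genes 11 (44%) were below −0.5 and none above 0.5, beside 11.5% and 2.45% of all genes. The median was −0.33, a shift of −0.15 from all genes. CDC25A, the phosphatase that activates CDK2, had no reported probe set: its 3 probe sets had signals from 15.2 to 25.3 at 12 h and from 3.003 to 20.1 at 18 h, after 37.4 to 111 on the 6 h array.

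The lists of deoxynucleotide supply and of recombination included further genes with lower signals at 18 h. RRM2, the small subunit of ribonucleotide reductase, had signals of 3119 and 1511 and log2 ratios of −1.03 and −1.20. The other 8 reported genes of the dNTP list were no lower than −0.49, the value of TYMS, which makes thymidylate. The median of these 9 genes was −0.42. EXO1, a nuclease of recombination and mismatch repair, had 194 and 87.3, a log2 ratio of −1.13, and BARD1, the partner of BRCA1, had −0.59. Of the 14 reported genes of recombination and checkpoint, 12 lay below the median of all genes. Below −0.5 lay 6 (42.9%), beside 11.5% of all genes. ATR, a checkpoint kinase of replication stress, had log2 ratios of −0.27 and −0.50. SLBP, which binds histone messenger RNA in S phase, had 1742 and 863, a log2 ratio of −0.997.

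Genes of mitosis lay on the other side of the median of all genes. CCNB1, cyclin B1, had signals of 1473 at 12 h and 2453 at 18 h and log2 ratios of 0.75 and 0.88 on its pair of probe sets. KIF20A, a kinesin of cytokinesis, had 376 and 589, a log2 ratio of 0.66. HMMR, a spindle protein, had 1922 and 2788, with log2 ratios of 0.55 and 0.68. NEK2, a centrosome kinase, had 839.6 and 1202, with 0.54 and 0.38. All 34 genes of the list were reported and reached 50 on both arrays. Their median log2 ratio was 0.19, a shift of 0.38 from the median of all genes, and 33 of 34 lay above the median of all genes. Relative to the hybridization controls the median itself was −0.04, while the shift from all genes stayed at 0.38. Of the 34, 6 (17.6%) were above 0.5, beside 2.45% of all genes, and none was above 1. AURKB, the kinase of the chromosomal passenger complex, was the exception, with signals of 201 and 137 and a log2 ratio of −0.54. AURKA, a spindle kinase chosen after its value was seen, had 0.51 and 0.48.

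**Figure D2:**
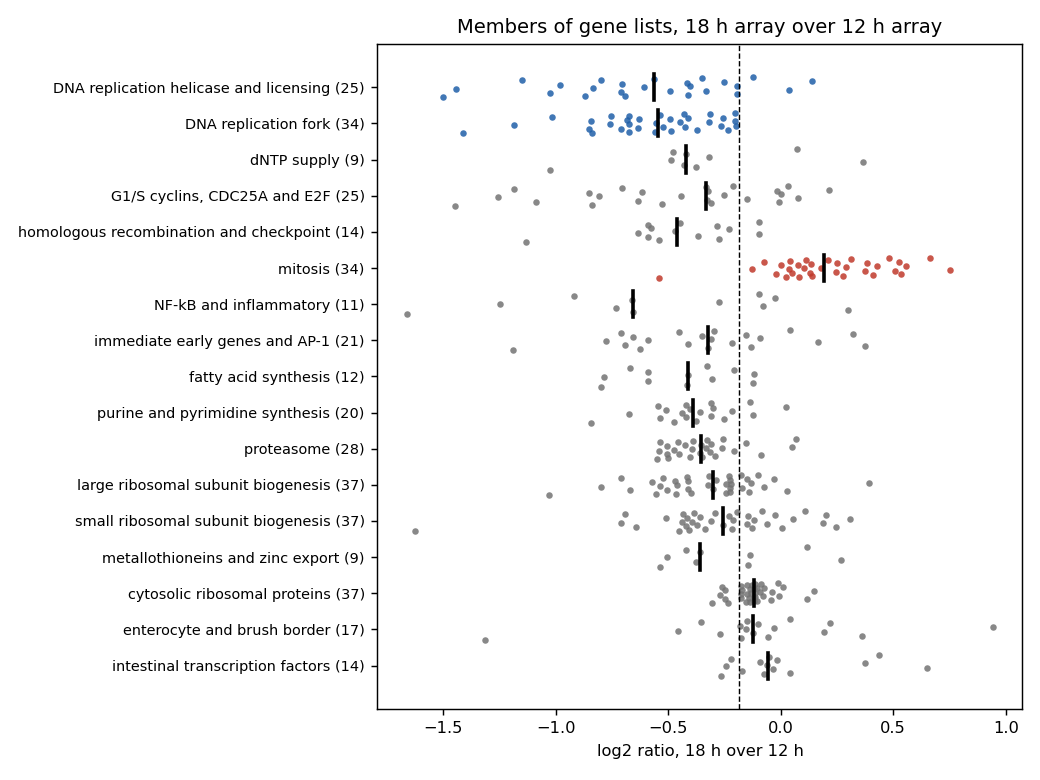
Log2 ratio of the 18 h array over the 12 h array (horizontal axis) for the reported members of 17 gene lists. Points are genes, thick bars are list medians, the dashed line is the all-gene median of −0.18, and brackets hold the number of members. The medians of the replication lists lie at −0.57 and −0.55, that of mitosis at 0.19 with AURKB alone left of the dashed line, and ribosomal proteins are packed near −0.12.

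The same lists can be set beside the earlier intervals, which use other pairs of arrays. For helicase and licensing genes the median log2 ratio minus that of all genes was 0.03 from 0 to 6 h, −0.31 from 6 to 12 h and −0.38 from 12 to 18 h. For fork genes the values were 0.13, −0.16 and −0.36, and for dNTP supply 0.03, 0.05 and −0.24. For mitosis they were 0.34, 0.37 and 0.38. Lists of ribosome assembly had their lowest value in the first interval, with −0.54 for both subunits from 0 to 6 h. In the last interval the small subunit had −0.07 and the large subunit −0.12. The 2 later intervals share the 12 h array, so an error on it would enter them with opposite sign, and their values are given side by side only. The 242 genes above 0.5 from 12 to 18 h had a median of −0.27 from 6 to 12 h, beside −0.05 for all genes. For the 1138 genes below −0.5 it was 0.04. The first and the last interval share no array. Over 9886 genes, which are not independent replicates, their log2 ratios had a Pearson correlation of 0.129 and a Spearman correlation of 0.149. Over the 8951 genes at 50 or more on all 4 arrays, the interquartile range of the log2 ratios was 0.457, 0.382 and 0.322 in the 3 intervals in order, lowest from 12 to 18 h. No log2 ratio was taken between arrays that are not neighbours in time. Where such arrays are set side by side below, their deposited signals are read.

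**Figure D3:**
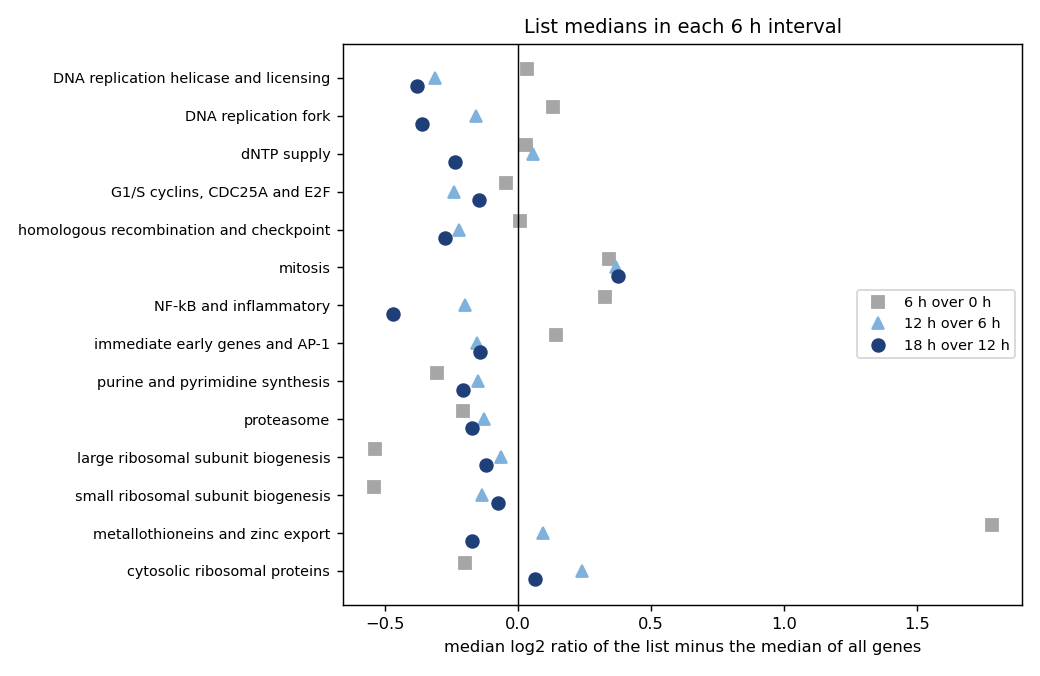
Median log2 ratio of 14 gene lists minus the median of all genes (horizontal axis) for 6 h over 0 h (grey squares), 12 h over 6 h (light triangles) and 18 h over 12 h (dark circles). Replication lists are at 0.03 and 0.13 in the first interval and at −0.38 and −0.36 in the last, mitosis lies between 0.34 and 0.38 in every interval, and metallothioneins stand at 1.78 in the first interval only.

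Single genes of these lists were also read on all 4 arrays, as deposited signals that are not divided by the array medians of 16.7, 20.8, 16.6 and 16.4. From 0 to 18 h CCNE2 read 1012, 1350, 414 and 150.2 on the 4 arrays in order, and DTL read 933, 1120, 428 and 207. In both, the 12 h and the 18 h array were the lowest of the 4. CDC6 had 406, 487, 243 and 84.8. KIF20A, in contrast, had 163, 268, 376 and 589, the highest value on the 18 h array. HMMR had 1058, 1521, 1922 and 2788 in the same order. CCNB1 had 1548, 1435, 1473 and 2453, with the highest value at 18 h. Divided by the array medians, its log2 ratios were −0.43 from 0 to 6 h, 0.36 from 6 to 12 h and 0.75 from 12 to 18 h. RRM2 had 2470, 3408, 3119 and 1511, and of the 4 arrays only that of 18 h lay below the 0 h value.

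**Figure D4:**
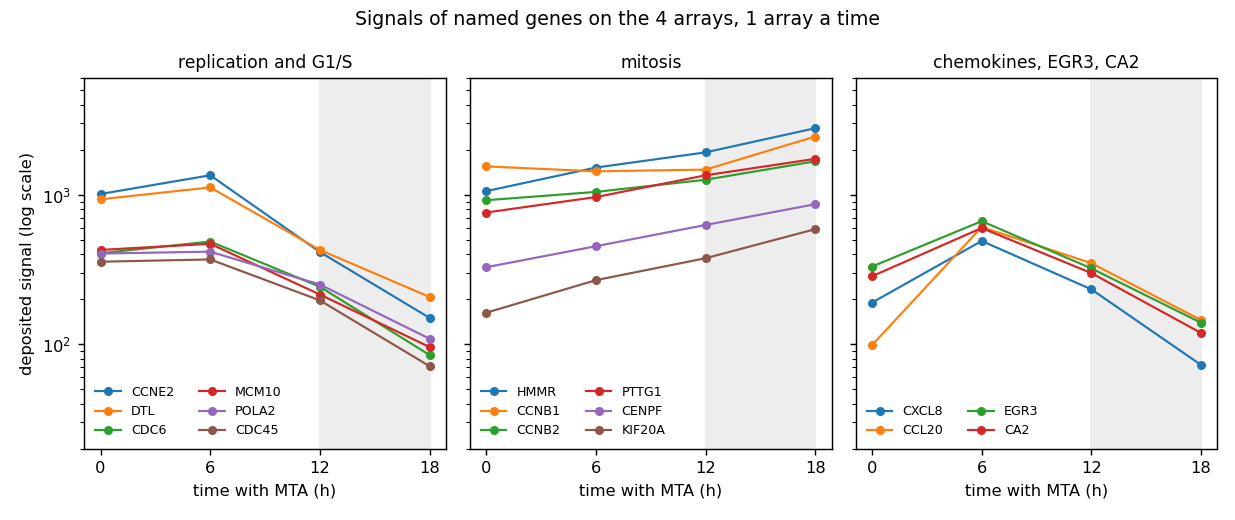
Deposited signal (vertical log axis) of 16 named genes on the arrays of 0, 6, 12 and 18 h with MTA (horizontal axis), 1 array a time and the interval from 12 to 18 h shaded. Genes of replication and G1/S are lower at the end of the shaded interval (CDC6 from 243 to 84.8), genes of mitosis higher (CCNB1 from 1473 to 2453), and the chemokines, EGR3 and CA2 are highest at 6 h and lowest, or for CCL20 second lowest, at 18 h.

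Single chemokines and early response genes had some of the lower ratios. CXCL8, which attracts neutrophils, had signals of 189.96, 491, 233 and 72.8 at 0, 6, 12 and 18 h and a log2 ratio of −1.66 from 12 to 18 h. CCL20, which attracts immature dendritic cells and lymphocytes, had 98.6, 609, 349 and 145, a log2 ratio of −1.25. Both were highest on the 6 h array, and CCL20 at 18 h was still above its 0 h value. CXCL2 and CXCL3, related chemokines looked up after their values were seen, were under 50 on both arrays, with log2 ratios of −0.21 and −0.03 on their brightest probe sets. NFKBIA, the inhibitor of NF-kB that NF-kB itself induces, had 315 and 165 in the last pair, a log2 ratio of −0.92. Only 11 of the 22 genes of the NF-kB and inflammatory list were reported. Their median was −0.66, but it was −0.28 over the 9 that reached 50 on both arrays and −0.14 with no signal minimum, so the list's value rests on which dim genes are let in. EGR3, an early growth response factor, had signals of 331, 666, 322 and 139, and a log2 ratio of −1.19. FOSL1 and JUN, subunits of AP-1, had −0.78 and −0.69, and the 4 probe sets of JUN reached up to 0.13. EGR1 had 1692 and 1021, a log2 ratio of −0.71. Of 21 reported immediate early genes, 7 (33.3%) were below −0.5, beside 11.5% of all genes, and 4 were above 0, beside 2439 of all 9886. The median was −0.32, a shift of −0.14 from all genes. TNFRSF12A, the receptor of the cytokine TWEAK, and DUSP1, a phosphatase of MAP kinases, had −1.06 and −0.69 in the list of ERK output, whose median was −0.24, a shift of −0.05 from all genes.

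Lists of ribosome assembly had medians that differed from that of all genes by −0.07 for the small and −0.12 for the large subunit. BYSL, an assembly factor of the small subunit, had signals of 132.8 and 42.6 and a log2 ratio of −1.62, the lowest of 74 reported genes of ribosome assembly, and its 18 h signal was dim. MRTO4, of the large subunit, had −1.03, but its other probe set had 0.00. Over both assembly lists 14 of 74 (18.9%) were below −0.5, beside 11.5% of all genes, and the median was −0.29, beside −0.18. MYC, a transcription factor that drives ribosome synthesis, had signals of 3032 and 2459 and a log2 ratio of −0.28. The 37 reported cytosolic ribosomal proteins had a median of −0.12, with all members between −0.30 and 0.15. Among 20 genes of purine and pyrimidine synthesis, 17 lay below the median of all genes, and the median shift from it was −0.21, after −0.30 from 0 to 6 h and −0.15 from 6 to 12 h. CTPS1, which makes CTP, had 201 and 111, a log2 ratio of −0.84, and PPAT, which opens purine synthesis, had −0.68 and −0.30. ODC1 and SRM, of polyamine synthesis, had −0.68 and −0.81.

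Metallothioneins, which hold zinc and copper in the cell, stood far above the 0 h array on the 6 h, 12 h and 18 h arrays. Between the last pair the difference was smaller, with a list median shifted by −0.17 from that of all genes. MT1X, named after its values were seen, had signals of 225, 1292, 1061 and 818 at 0, 6, 12 and 18 h, and a log2 ratio of −0.36 from 12 to 18 h. MT1G had 139.8, 519, 675 and 460, a log2 ratio of −0.54. Of the 9 reported genes of metallothioneins and zinc export, the median was −0.36 from 12 to 18 h and 1.57 from 0 to 6 h, and their range from 12 to 18 h was −0.54 to 0.27. MT genes are near-identical, and probes can take up transcripts of more than 1 of them, so their values are not separate readings.

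The medians of the lists of lipid synthesis and of the proteasome lay below that of all genes. Of 12 reported genes of fatty acid synthesis, 5 (41.7%) were below −0.5, beside 11.5% of all genes. LPIN1, a phosphatidate phosphatase, was at −0.80 and ME1, malic enzyme, at −0.67. The 17 genes of cholesterol synthesis and uptake had a median of −0.37, with FDPS, farnesyl diphosphate synthase, at −0.56. Of 28 proteasome genes, 24 lay below the median of all genes and none was above 0.5, beside 2.45% of all genes. The lowest was PSMD3 at −0.55. Of 23 genes of hypoxia and glycolysis, 4 (17.4%) were below −0.5, beside 11.5% of all genes, and 6 at or above the all-gene median. The list median was −0.31, a shift of −0.13 from all genes. HK1 and HK2, the hexokinases that open glycolysis, had log2 ratios of −1.03 and −0.90, and ADM, adrenomedullin, had −0.94. CS, citrate synthase of the mitochondrial matrix, had 1296, 1129, 1426 and 647 on the 4 arrays in order, highest at 12 h. Its log2 ratio from 12 to 18 h was −1.12, the lowest of any gene with a signal of 1000 or more. It rests on a single reported probe set. GCLM, a subunit of the enzyme that starts glutathione synthesis, had −1.03 on its brightest probe set, while its other probe sets reached 0.33. CDKN1A, the p21 inhibitor of cyclin-dependent kinases, had signals of 282, 580.1, 495 and 278 on the 4 arrays in order and a log2 ratio of −0.82 from 12 to 18 h. The other 5 reported inhibitors of these kinases lay between −0.21 and 0.21.

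Genes of the epithelial lists differed in both directions. Among the reported colorectal epithelial markers, KRT19, CDH17 and KRT20 had log2 ratios of −0.59, −0.44 and −0.35. Only CDX2 and CDH1 of the 11 reported markers were above 0, at 0.38 and 0.01, beside 2439 of all 9886 genes. The CDX2 value came from signals of 54.9 and 70.3, near the minimum. CA2, a carbonic anhydrase of colonic surface cells, had signals of 285, 599, 299 and 119 at 0, 6, 12 and 18 h, and a log2 ratio of −1.31 from 12 to 18 h. ALPG, an alkaline phosphatase, had 38.8, 51.9, 107 and 204, a log2 ratio of 0.94. ALPP, its near-identical placental relative, named after its value was seen, had 54.7 at 12 h and 69.3 at 18 h, and probes of the pair can share transcripts. The 17 reported genes of enterocytes and brush border had a median of −0.12. Of these, 12 were below 0, beside 7447 of all 9886 genes, and 5 above it. KLF5, a transcription factor of intestinal crypts, had 2022, 2471, 1305 and 2022 at 0, 6, 12 and 18 h, lowest on the 12 h array. Its log2 ratio was 0.65 from 12 to 18 h, but −0.09 on its other probe set. CLDN7 and CLDN2, claudins of tight junctions, had −0.74 and −0.60, while CLDN1 and CLDN4, read after their values were seen, had 0.05 and 0.01. The list of tight junctions had a median of −0.10, and that of ion and water transport one of −0.17. In the latter SGK1, a kinase that stimulates sodium transport, had −0.67. HPGD, which degrades prostaglandins, had 359.5 and 632, with 4 probe sets between 0.28 and 0.83.

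Other genes at the ends of the distribution belonged to no single group. Of those below −1 with 50 or more on both arrays, ZBTB7B, a transcription factor, had −1.43, EMD, emerin of the nuclear envelope, −1.34, and CHCHD3, of the mitochondrial cristae, −1.32. The signal of ZBTB7B was 137 at 12 h and 50.3 at 18 h, just above the minimum. KLHL23, TCF19, RNF167 and TTC12 had values between −1.31 and −1.19. Each of these rests on a single reported probe set. From 6 to 12 h, ZBTB7B, KLHL23, TTC12 and EMD had log2 ratios of 0.94, 0.65, 0.59 and 0.42. CHCHD3, TCF19 and RNF167 had −0.53, −0.44 and −0.21 in that interval. The highest ratio with 50 or more on both arrays was that of LAMA5, a laminin chain of the basement membrane, with signals of 344, 165, 164 and 435 on the 4 arrays in order and a log2 ratio of 1.43. NAF1, which assembles small nucleolar ribonucleoproteins, had 117 and 233, a log2 ratio of 1.02, after 535 on the 6 h array. HMGN5, a nucleosome-binding protein, had 1.01. GTF2F2, a general transcription factor, had 384, 542, 192 and 367 on the 4 arrays, lowest at 12 h, and 0.96 from 12 to 18 h. LAMA5, NAF1, HMGN5 and GTF2F2 also rest on a single reported probe set each. CAVIN2, of caveolae, had 0.83 and 1.01. Among genes at 1000 or more, NCKAP1, of the complex that drives actin branching, had 2423, 3247, 1665 and 2944 on the 4 arrays, lowest at 12 h. Its log2 ratio from 12 to 18 h was 0.84, from a single reported probe set. RGCC, a regulator of the cell cycle, had 2418 at 12 h and 3822 at 18 h, with 0.68 and 0.77. GAPDH and ACTB, often used as references, had −0.18 and −0.34.

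The widest ratios of all were dim. HCST had signals of 59.9 and 4.88 and a log2 ratio of −3.60, UTS2R had −2.73 and LINC00342 −2.22. On the other side DEFB124 had 8.11 and 61.5, a log2 ratio of 2.94, ELK2AP had 2.38 and SPACDR 1.85. PLEC, which links intermediate filaments to junctions, had 96.2 and 21.1, a log2 ratio of −2.17. ULK1, a kinase that starts autophagy, had 49.8 and 108, a log2 ratio of 1.13, from a single probe set.

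A second probe set gave a check within the same RNA. Of 4074 genes with 2 or more reported probe sets, 14 had the brightest below −1, and in 4 of them the second was below −1 as well, while in 4 others it was above 0. These 4 were CDC6, DTL, RRM2 and, named after its values were seen, IL17RB, an interleukin receptor, with −1.10 and −1.59. At the smaller threshold, 94 of 358 genes with the brightest below −0.5 had the second there too, and 15 of 49 above 0.5 did. In 14 of those 49 the second was below 0. Of 20 replication genes with a second probe set, 17 were below 0 on both, beside 60.8% of all such genes, and of 13 mitosis genes, 9 were above 0 on both, beside 9% of all.

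**Figure D5:**
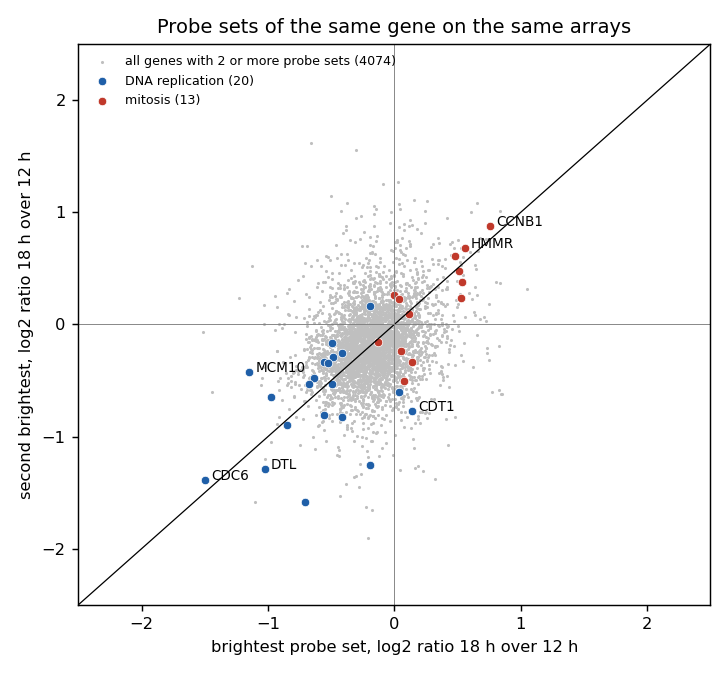
Log2 ratio of the 18 h array over the 12 h array on the brightest (horizontal axis) and the second brightest (vertical axis) reported probe set of 4074 genes, with the line of equal values and with 3 genes outside the axes. CDC6 and DTL lie below −1 on both axes, CCNB1 and HMMR above 0.5 on both, and CDT1 has opposite signs.

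Over the 52 lists with 9 or more reported genes, the median minus that of all genes ran from −0.47, for the NF-kB list, to 0.38, for mitosis. The NF-kB value rests on dim genes, and its shift was 0.01 with no signal minimum. The next lowest was −0.38, for helicase and licensing genes. It lay within 0.1 of 0 in 29 lists, more than 0.2 below in 7 and more than 0.2 above in mitosis alone. The 7 were the NF-kB list, both replication lists, recombination and checkpoint, dNTP supply, fatty acid synthesis, and purine and pyrimidine synthesis. Lists close to the median of all genes included the interferon response at a shift of 0.01, the chaperones of the endoplasmic reticulum at −0.01, ATF4 targets at −0.02 and RNA polymerases I and III at −0.03.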

How the data were processed

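Total RNA of RCM-1 cells was labelled with biotin and hybridised to Affymetrix U133 Plus 2.0 arrays, 1 array a time. The authors deposited linear MAS5 signal intensity values from Affymetrix Expression Console. The software version and the target of the scaling are not given in the labels or methods. From these, each array was divided by its median over all probe sets, 62 control probe sets were left out, and the log2 ratio of 18 h over 12 h was taken without a pseudocount where the deposited signal was 50 or more on at least 1 of the 2 arrays. Gene names came from the platform annotation, with symbols as in RefSeq. Of the reported probe sets 16244 had 1 symbol, 831 several and 1501 none, and only the first were named. The number of arrays limits the precision, and p-values were not computed.

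Named were the 15 lowest and 15 highest genes at 50 or more on both arrays with no contrary probe set, the 10 at each end with 1000 or more, up to 4 members of each of 57 lists in the direction of its median with any member past 2-fold the other way, the 3 most extreme dim genes each way, and a set of cell cycle and reference genes. The members, lists and thresholds were chosen with earlier results of these data known. The lists hold 1333 genes, of which 1051 were reported, 164 had a probe set below the minimum only and 118 had no probe set of 1 symbol. Promoter windows came from RefSeq, GRCh38.p14. Alternatives concerned the scaling, the signal minimum, a pseudocount of 16, the thresholds and the mean over probe sets. The ratio calculation was tested on simulated data. Calculations used pandas 2.3.3, SciPy 1.17.1 and NumPy 2.4.6 under Python 3.11.15, and figures matplotlib 3.10.9.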

Additional observations from a re-analysis of the deposited data

How the results depend on the processing

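No paired analysis was possible because each time has 1 array, and no replicate could be left out. The counts past 2-fold, 201 lower and 75 higher probe sets and 95 lower and 28 higher genes, moved with most settings. They were, in that order, 106, 160, 49 and 59 with trimmed-mean scaling and the same 106, 160, 49 and 59 when centred on the reported probe sets. They were 80, 223, 37 and 79 relative to the poly-A controls and 584, 34, 285 and 12 relative to the hybridization controls. After quantile normalization they were 138, 112, 62 and 44. Without a signal minimum they were 7806, 7873, 2049 and 2092, with a spread between probe sets of 1.49. They were 71, 11, 46 and 4 with 50 or more on both arrays, 84, 13, 53 and 5 with 100 or more on at least 1, and 126, 33, 68 and 10 with a mean of 50 or more. They were 82, 26, 46 and 9 with a pseudocount of 16, 2255, 626, 1138 and 242 at a threshold of 0.5, and 38, 19, 15 and 7 at 1.5. The deposited scaling gave 213, 63, 98 and 23. The scalings shifted the median of all genes by 0.18 (trimmed mean, quantile and centred), 0.26 (poly-A), −0.23 (hybridization) and −0.02 (deposited).

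Over 12 alternative settings, 34 of 57 list medians took the other sign in at least 1, and 15 of 57 did so when set against the median of all genes. Neither sign turned in the lists of replication helicase and licensing, replication fork, recombination and checkpoint, dNTP supply, fatty acid synthesis, and purine and pyrimidine synthesis. Mitosis turned to −0.04 relative to the hybridization controls but kept its sign against all genes, with shifts from 0.33 to 0.40. The NF-kB median was −0.28 with 50 or more on both arrays and −0.14 with no minimum, where its shift turned to 0.01. The mesenchymal list of 5 genes was at −0.20 with 100 or more on at least 1 array. With all reported probe sets of a gene averaged, CCNE2 was at −1.02, MCM10 at −0.72, MRTO4 at −0.52 and GCLM at −0.18. Signals near 50 limit what can be said of dim genes, and differences between cultures cannot be seen with 1 array a time.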

Other observations

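Genes outside the groups above also differed between the arrays. GLRX, a glutaredoxin that reduces mixed disulphides, had signals of 685, 1539, 1262 and 658 on the arrays of 0, 6, 12 and 18 h, with log2 ratios of −0.92 and −0.50 from 12 to 18 h on its pair of probe sets. CPOX, an enzyme of haem synthesis, had 1114, 1528, 1592 and 859.6, a log2 ratio of −0.87. SLC20A1, a phosphate transporter, had −0.92 and −0.58, RHOC, a small GTPase of cell migration, −0.88, and ZWINT, a kinetochore protein outside the mitosis list, −0.86, from 2065 to 1120. CEMIP, which takes part in hyaluronan breakdown, had 1002, 592, 703 and 1103 on the 4 arrays, and a log2 ratio of 0.67. JPT2 had −0.94 on its brightest probe set and up to 0.25 on the others.

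NUP62 and NUP85, proteins of the nuclear pore, had log2 ratios of −1.06 and −0.76, and 8 of 37 genes of nuclear transport (21.6%) were below −0.5, beside 11.5% of all genes, with a median shift of −0.06 from all genes. Of 39 genes of mitochondrial ribosomal proteins 30 lay below the median of all genes, with MRPL11 at −0.67, while their median was −0.27. POLR3K, a subunit of RNA polymerase III, had 575 and 288, a log2 ratio of −0.98. IRF7, a transcription factor of the interferon response, had 279.5 and 154, a log2 ratio of −0.84.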
